A study of Homo sapiens with 7 samples.

Results

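Fibroblast growth factors (FGFs) are secreted proteins that bind receptor tyrosine kinases at the cell surface together with heparan sulfate. The activated receptor recruits adaptors such as FRS2 and signals through RAS and the MEK-ERK cascade, which in turn switches on inhibitors of the pathway, among them Sprouty proteins and dual-specificity phosphatases. Human pluripotent stem cells depend on FGF signalling to remain undifferentiated, and their culture medium supplies FGF2. They also make FGF ligands of their own, which can act on the cell that secretes them or on its neighbours.

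The genes described are 4 ligands, FGF2, FGF4, FGF8 and FGF19, and 4 receptors, FGFR1, FGFR2, FGFR3 and FGFR4, out of 19775 genes in the deposited table. They were found by gene symbol, and all 8 were listed and passed the filter on low values (a row mean of at least 10). The set was chosen from measured values of this same experiment, since differences of several ligands were already known, so the values of these genes are given as a description. No p-value of a single member is printed, and a member's side of the threshold is stated only to place it beside the share of all genes called. Other FGF ligands, pathway genes and chromosomal neighbours, which the choice did not name, were tested.

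Poly(A) RNA was sequenced from wild-type H1 cells, an established human embryonic stem cell line, kept in E8, a defined culture medium with FGF2 and TGFβ among its components. The inhibitor was XMD892 at 1 µM, which the study's title ties to the kinase ERK5. The groups were E8 without inhibitor harvested at 48 h (2 libraries), and XMD892 for 12 h (1 library), 24 h (2 libraries) and 48 h (2 libraries). E8 was sampled at 48 h alone, so at 12 h and 24 h the inhibitor and the harvest time cannot be told apart, and all 3 comparisons with E8 share the same control libraries. H1 is a single line, and whether replicates were separate cultures is not given in the sources used here, so the spread between them may be technical.

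The libraries held 18528689 to 24148186 reads over the listed genes. Values are normalised read counts, the gene's reads divided by 1 factor per library. Differences are on the log2(value + 1) scale with a limma standard error, and a gene is called where its p, adjusted by Benjamini-Hochberg across the 16351 genes tested, was under 0.05. The 12 h group has no replicate and was assumed to vary like the others. The difference between the 2 E8 libraries followed transcript GC content: across 11199 genes, which are not independent replicates, the Spearman correlation of their log2 difference with GC content was 0.77. The pairs at 24 h and 48 h gave 0.02 and -0.33. Markers of pluripotent stem cells (8 of 8 listed were in the table) summed to 146595 to 168879 in E8, 136495 at 12 h, 149356 to 149416 at 24 h and 136587 to 158340 at 48 h, and POU5F1 and LIN28A made up most of the sum. Within the list, NANOG stood at 6224 in E8, 3059 at 12 h, 4021 at 24 h and 2799 at 48 h, and TDGF1, a NODAL co-receptor, at 11066, 7791, 7033 and 6416 (group means), both with every treated library below E8. SALL4 (3691 in E8 and 2931 at 48 h) and DPPA4 (22751 and 20076) also had every treated library below E8. POU5F1 (56520 and 62563), SOX2, LIN28A and L1TD1 did not. Each of the 8 was present in each group. In bulk RNA, fewer cells of a type and less RNA per cell cannot be told apart.

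At 48 h of XMD892 all 4 ligands were called lower than E8, FGFR3 was called higher, and FGFR1, FGFR2 and FGFR4 were not called. Of all tested genes, 6.45% were called lower and 5.08% higher, and nothing is read from the members' count because the choice used this contrast. The 5 calls were 2 without 48 h replicate 1 (FGF4 and FGF8) and 3 without 48 h replicate 2. At 24 h, 3 ligands were called lower (FGF2, FGF4 and FGF8), FGFR3 was called higher and 4 genes were not called, beside 7.56% lower and 8.66% higher over all tested genes. At 12 h, FGF4 and FGF8 were called lower, FGFR3 was called higher and 5 genes were not called, beside 4.89% lower and 2.56% higher, and 5 genes were called there without either E8 library. No share of all tested genes is given for the fits with a library left out. The median log2 difference of the 8 genes was -0.31 at 48 h, -0.23 at 24 h and -0.35 at 12 h, against 0.02, 0.01 and 0.02 over all tested genes.

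**Figure D1:**
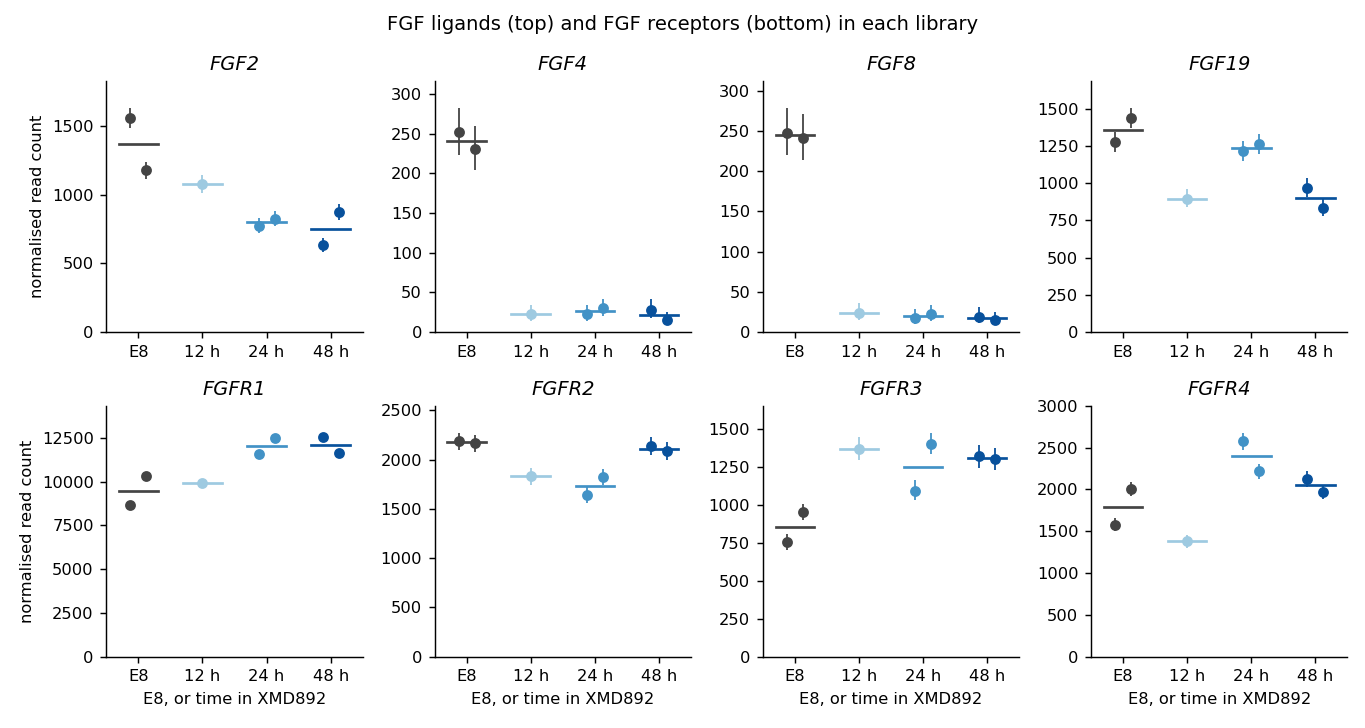
Normalised read counts of the 8 genes (linear vertical axes from 0) in each library, by group (E8, or hours in XMD892). Points are libraries with 95% Poisson intervals, which cover counting error alone, and horizontal bars are group means. FGF4 and FGF8 lay above 230 in both E8 libraries and below 30 in all 5 treated libraries.

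FGF4, a ligand made by pluripotent cells of the early embryo, had normalised counts of 251 and 231 in the E8 libraries. It stood at 22.5 at 12 h, 22.9 and 29.9 at 24 h, then 28.1 and 15.9 at 48 h. Every treated library lay far below both E8 libraries, and the 24 h and 48 h libraries overlapped. The log2 difference from E8 was -3.36 at 12 h (SE 0.41), -3.15 at 24 h (SE 0.33) and -3.45 at 48 h (SE 0.33), the last a 10.9-fold lower level. The treated values rest on 16 to 32 reads per library, against 288 and 279 in E8.

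FGF8, which acts in gastrulation and in patterning of the embryo, followed almost the same course. Its normalised counts were 248 and 241 in E8, 23.6 at 12 h, 17.7 and 22.4 at 24 h, then 19.4 and 14.9 at 48 h. The low level was thus present in the earliest treated library. The log2 difference from E8 was -3.32 at 12 h (SE 0.40), -3.55 at 24 h (SE 0.33) and -3.77 at 48 h (SE 0.33), or 13.6-fold at 48 h. Its treated libraries held 15 to 24 reads and its E8 libraries 284 and 292. Over the alternatives run, the log2 differences at 48 h were from -3.84 to -3.06 for FGF4 and from -3.95 to -3.50 for FGF8. These runs reuse the libraries from which the genes were chosen, so the ranges are a description.

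NANOG and TDGF1, given above, were lower in the same libraries as these 2 ligands, and so was the summed level of markers of mesendoderm, a germ layer precursor in which FGF8 is known to be active. Of 5 listed, 4 were in the table, and their summed level was 315 to 321 in E8, 65.5 at 12 h, 109 to 116 at 24 h and 88.5 to 94.2 at 48 h. MIXL1 made up most of it, with 255 ± 11.7 (SD, n = 2) in E8, 33.3 at 12 h and 61.3 ± 5.82 (n = 2) at 48 h, and GSC stood at 38.9 ± 9.29 in E8 and 8.87 ± 2.73 at 48 h (n = 2 each). The other 2 did not share this: EOMES had group means of 6.80 in E8, 7.51 at 12 h, 12.7 at 24 h and 9.32 at 48 h, and MESP1 of 17.0, 12.9, 21.8 and 11.8. Markers of trophoblast and amnion (4 of 5 in the table) summed to 874 to 930 in E8 and to 507 to 622 in the treated libraries. Neuroectoderm markers (5 of 6) summed to 14223 to 18197 in E8, 24762 at 12 h, 19817 to 20648 at 24 h and 15092 to 16668 at 48 h. NES carried the 12 h value (8245 in E8 and 18781 at 12 h), while ZIC1 (2649 and 1937) and ZIC2 (5267 and 3993) were lower at 12 h, and SOX1 stood at 41.0 in E8 and 95.5 at 48 h. Markers of fibroblasts (3 of 5) summed to 6835 to 8078 in E8 and 6837 to 8568 in the treated libraries. THY1 made up most of that sum, with group means of 5389 in E8, 3970 at 12 h, 5598 at 24 h and 5719 at 48 h. COL1A1 moved both ways (535 in E8, 1534 at 12 h, 867 at 24 h and 342 at 48 h), and COL1A2 stood at 1533, 1333, 1644 and 1908. Markers of definitive endoderm (2 of 5) summed to 48.8 to 57.6 in E8 and 29.2 to 58.9 in the treated libraries. The part of such cells in the ligand values was not tested.

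FGF2, the ligand that the medium also supplies as protein, had normalised counts of 1558 and 1177 in E8. It read 1077 at 12 h, 773 and 825 at 24 h, then 631 and 872 at 48 h. The groups at 24 h and 48 h lay below both E8 libraries and overlapped each other, while the 12 h library lay just under the lower E8 library. The log2 difference was -0.33 (SE 0.22) at 12 h, not called, -0.76 (SE 0.18) at 24 h and -0.87 (SE 0.18) at 48 h, both called lower. The E8 pair itself differed, with replicate 2 at 0.755 of replicate 1, and FGF2 had the lowest transcript GC content of the 8 genes (37.5%). With the GC trend of every library removed by loess, the difference at 48 h was -0.73 and still called. Without 48 h replicate 1 it was -0.63 and not called.

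FGF19, an endocrine-type ligand that signals through FGFR4 with the co-receptor β-Klotho in liver, did not share that course. Its normalised counts were 1275 and 1437 in E8, 897 at 12 h, 1215 and 1265 at 24 h, then 969.7 and 837 at 48 h. The 12 h and 48 h libraries lay below all others, and the 24 h libraries lay just below E8. The log2 difference was -0.59 at 12 h (SE 0.19, not called), -0.13 at 24 h (SE 0.15, not called) and -0.59 at 48 h (SE 0.15, called lower). Without either 48 h library the call at 48 h was lost, at -0.69 and -0.48, and at 12 h the gene was called in 6 of 15 alternatives.

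Among the receptors, FGFR3, a receptor tyrosine kinase that FGF8-family ligands can activate, was called higher at each time. Its normalised counts were 755 and 952 in E8, 1369 at 12 h, 1094 and 1403 at 24 h, then 1319 and 1302 at 48 h. All 5 treated libraries lay above both E8 libraries, and the 24 h pair spanned the values of 12 h and 48 h. The log2 difference was 0.69 at 12 h (SE 0.20), 0.55 at 24 h (SE 0.16) and 0.63 at 48 h (SE 0.16), the last a 1.54-fold higher level. The call was lost in some of the alternatives run. At 48 h it was lost without either 48 h library (0.62 and 0.64), at 24 h with the GC trend removed (0.34) and without E8 replicate 1 (0.38) or 24 h replicate 2 (0.37), and at 12 h in a fit of those groups alone.

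FGFR1, a receptor for FGF2 and FGF4 on chromosome 8 (38400215 to 38468834, minus strand, GRCh38), had normalised counts of 8661 and 10296 in E8, 9925 at 12 h, 11580 and 12476 at 24 h, then 12571 and 11655 at 48 h. The later libraries lay above both E8 libraries. The log2 difference was 0.07 at 12 h (SE 0.17), 0.35 at 24 h (SE 0.14) and 0.36 at 48 h (SE 0.14), none of them called. It was called at 24 h and 48 h without E8 replicate 2 (0.47 and 0.48) and with the GC trend removed (0.35 at both times).

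FGFR2, whose splice forms have different ligand preferences, stood at 2187 and 2164 in E8, 1830 at 12 h, 1642 and 1820 at 24 h, then 2138 and 2085 at 48 h. The 12 h and 24 h libraries were the low ones, and at 48 h the log2 difference from E8 was -0.04, with a 95% interval from -0.34 to 0.25. At 24 h it was -0.33 (SE 0.14), not called, and with the GC trend removed it was -0.29 and called. The table sums splice forms, so their balance was not analysed here.

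FGFR4, a receptor for FGF19, read 1581 and 2005 in E8, 1378 at 12 h, 2576 and 2215 at 24 h, then 2125 and 1970 at 48 h. The 12 h library was the lowest and the 24 h libraries the highest. The log2 difference from E8 was -0.37 (SE 0.19) at 12 h, 0.42 (SE 0.15) at 24 h and 0.20 (SE 0.15) at 48 h, none called. Without E8 replicate 2 it was called higher at 24 h (0.60) and 48 h (0.37), and without E8 replicate 1 it was called lower at 12 h (-0.54). E8 replicate 2 read 1.27 times replicate 1 for FGFR4, a gene with a transcript GC content of 63.6%. With the GC trend removed the differences were -0.30, 0.19 and 0.14.

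**Figure D2:**
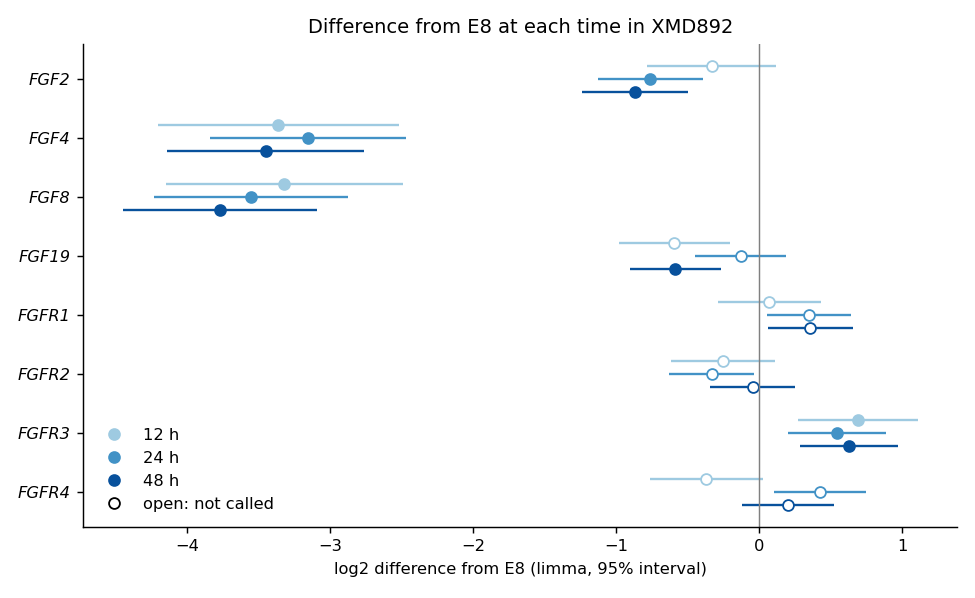
Log2 difference from E8 (horizontal axis, linear) of each gene at 12 h, 24 h and 48 h of XMD892, from limma, with 95% intervals; filled points were called and open points were not. FGF4 and FGF8 lie below -3 at each time, and the other 6 genes lie between -0.87 and 0.69.

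Between the treated times, no member was called. From 24 h to 48 h, 0 of 8 were called by limma, 0 by edgeR and 0 by DESeq2, with 1 (FGF19, log2 difference -0.46, SE 0.15) at an unadjusted p under 0.05. At the adjusted threshold 0.856% of all tested genes were called lower and 0.349% higher. From 12 h to 24 h, 0 of 8 were called by limma and 0 by edgeR, while DESeq2 called 1, FGFR4 (log2 difference in limma 0.79, SE 0.19). At an unadjusted p under 0.05 there were 2, FGFR4 and FGF19 (0.47, SE 0.19). At the adjusted threshold 0.128% of all tested genes were called lower and 0.263% higher. The share of all genes at an unadjusted p under 0.05 is not given, so the unadjusted counts have no background beside them. The differences of FGF4 and FGF8 between 24 h and 48 h were -0.30 and -0.22, with 95% intervals from -0.98 to 0.39 and from -0.90 to 0.46.

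Levels were compared between genes per kilobase of annotated exon, since a longer transcript gives more reads. On that scale the mean level in E8 was highest for FGFR1 (685 per kb), followed by FGF19 (554), FGFR4 (371), FGFR2 (287), FGF2 (202), FGFR3 (176), FGF8 (174) and FGF4 (74.5). The library values of FGF2, FGFR3 and FGF8 overlapped, so their order in E8 is not resolved, and those of the other neighbours in this order did not overlap. The order depends on the length used: by the longest transcript, FGF19 (521 to 587 per kb in E8), FGFR4 (506 to 642) and FGFR2 (495 to 501) are close, and FGFR1 (1393 to 1656) and FGF4 (71.3 to 77.8) remain at the ends. At 48 h, per kb of exon, FGFR1 read 842 to 908 per kb, FGFR4 408 to 440, FGF19 342 to 396, FGFR2 275 to 282, FGFR3 269 to 272, FGF2 93.1 to 129, FGF8 10.6 to 13.9 and FGF4 4.91 to 8.68.

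The make-up of the ligand sum differed between E8 and the treated libraries, while FGFR1 held a near constant part of the receptor sum. FGF4 and FGF8 together made 25.3% and 24.2% of the 4 ligands' summed level per kb in the E8 libraries and 3.13% to 4.40% in the treated ones. FGF19 made 51.8% and 58.5% in E8 and 66.7% to 78.8% in the treated libraries. FGFR1 made 44.8% to 47.7% of the 4 receptors' sum in all 7 libraries, a share that depends on the length used: by the longest transcript it was 54.2% to 58.2%. FGFR3 made 11.1% and 12.0% of the receptor sum in E8 and 12.5% to 18.5% in the treated libraries.

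The ligand sum was 1005 and 1004 per kb in E8, 549 at 12 h, 630.4 and 664 at 24 h, then 512 and 486 at 48 h. The receptor sum was 1398 and 1641 per kb in E8, 1526 at 12 h, 1813 and 1890 at 24 h, then 1902 and 1794 at 48 h. The ratio of the receptor to the ligand sum therefore stood at 1.39 and 1.63 in E8, 2.78 at 12 h, 2.88 and 2.85 at 24 h, then 3.72 and 3.69 at 48 h. By the longest transcript the same ratio was 2.48 and 2.91 in E8 and 5.01 to 6.79 in the treated libraries. These are sums of RNA of genes chosen from the data, and they leave out FGF2 protein added with the medium.

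**Figure D3:**
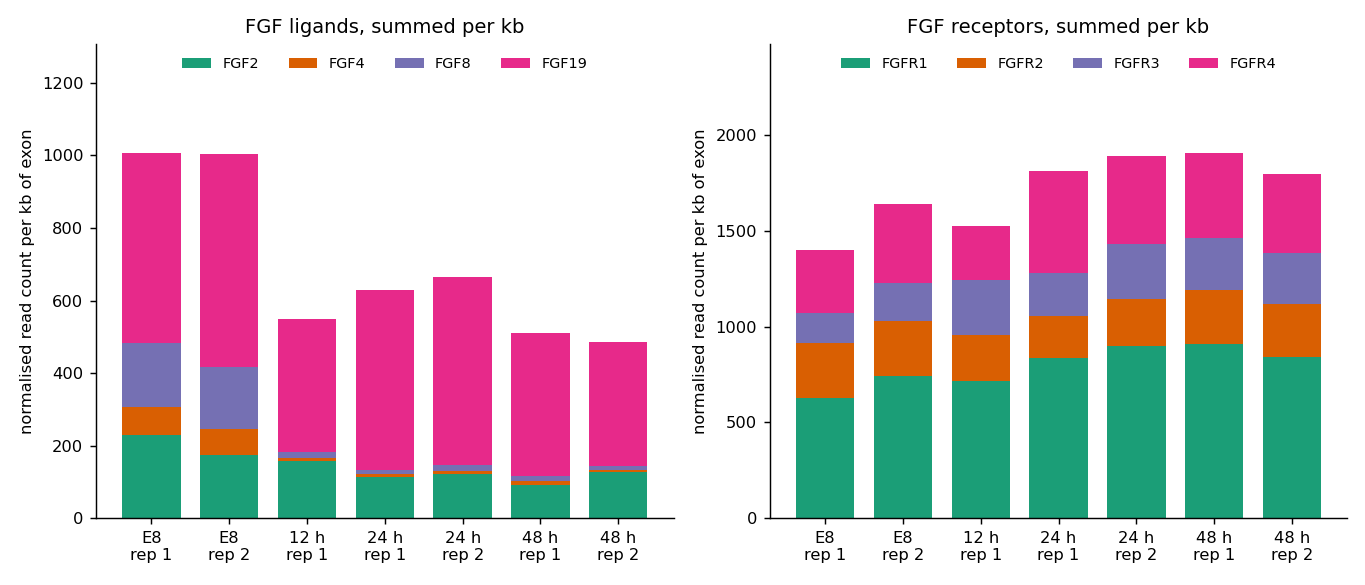
Normalised read counts per kb of annotated exon (linear vertical axes from 0), stacked for the 4 ligands (left) and the 4 receptors (right) in each library. FGF19 was the tallest ligand segment in all 7 libraries, and the FGF4 and FGF8 segments were visible mainly in the E8 libraries.

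FGF4 and FGF19 are neighbours, on chromosome 11 at 69771016 to 69775403 and 69698232 to 69704642 (GRCh38, minus strand), with starts 70.8 kb apart. FGF8 lies on chromosome 10 at 101770130 to 101780369 (minus strand). FGF2 lies on chromosome 4 at 122826708 to 122898236 (plus strand), and FGFR3 on the same chromosome at 1793293 to 1808872 (plus strand). FGFR2 lies on chromosome 10 at 121478334 to 121598458 (minus strand) and FGFR4 on chromosome 5 at 177086886 to 177098144 (plus strand). These are whole gene spans in GENCODE 29, and each read count sums the exons of the gene.

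The RefSeq table of promoter windows (GRCh38.p14, 250 bases before to 50 after each gene's start) matched 4 of the 8 genes, FGF2, FGFR2, FGFR3 and FGFR4. The sequences upstream of FGF2, called lower, and of FGFR3, called higher, are shown because these are the matched genes with a called difference. Both are printed on the plus strand, 5′ to 3′, with GC boxes (GGGCGG on either strand, the core of SP1 sites) in capitals. The first is chr4:122826581-122826707 and the second is chr4:1793043-1793292.
FGF2: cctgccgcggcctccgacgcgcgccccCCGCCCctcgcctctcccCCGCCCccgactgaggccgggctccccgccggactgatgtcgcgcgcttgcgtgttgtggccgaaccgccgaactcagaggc
FGFR3: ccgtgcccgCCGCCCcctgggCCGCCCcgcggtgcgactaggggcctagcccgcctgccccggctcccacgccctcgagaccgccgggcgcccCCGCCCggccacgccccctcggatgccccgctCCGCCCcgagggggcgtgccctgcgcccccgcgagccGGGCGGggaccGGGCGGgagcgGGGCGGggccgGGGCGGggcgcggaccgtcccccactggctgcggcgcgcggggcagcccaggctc

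The printed stretch of FGF2 holds 2 GC boxes and that of FGFR3 holds 8. For each gene only its most upstream window was used, and any other annotated starts were not searched. In these whole windows of 300 bases the number of matches was 3 for FGF2, 5 for FGFR2, 8 for FGFR3 and 7 for FGFR4. Of the 35116 windows in the table, 45.0% held at least 1. The TATA box (TATAAA), the AP-1 site (TGANTCA), the E-box (CACGTG) and the MEF2 site, searched on both strands, had 0 matches in these 4 windows, and 11.5%, 7.71%, 7.26% and 2.99% of all windows held them. All 4 windows searched held GC boxes, those of the uncalled FGFR2 and FGFR4 included, which is a description of the letters in these windows.

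The nearest 2 tested genes on each side of every member, 28 genes that are not members, were compared to show whether the differences extended along the chromosome. At 48 h 2 of them fell, 1 rose and 25 did not pass, with a median log2 difference of -0.01. These counts are near the shares of all tested genes, 6.45% lower and 5.08% higher. ANO1, a calcium-activated chloride channel gene 303 kb from FGF4, fell from 93.2 ± 10.8 (SD, n = 2) to 27.9 ± 0.217 (n = 2), with a log2 difference of -1.70 and a limma adjusted p of 0.0012. PLEKHA2, a phosphoinositide-binding adaptor gene 432 kb from FGFR1, fell from 162 ± 18.9 to 58.1 ± 10.4 (log2 difference -1.47, limma adjusted p = 0.0006). RAB24, a small GTPase gene 217 kb from FGFR4, rose from 108 ± 55.8 to 199.9 ± 6.26 (0.99, limma adjusted p = 0.019), but its call was lost with DESeq2 (0.88), without E8 replicate 1 (0.44) and without either 48 h library.

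Neighbours closer to the lower ligands were not called at 48 h, members left out. FGF4 and FGF19, both members called lower at 48 h, have starts 70.8 kb apart. CCND1, the cyclin D1 gene 63.6 kb from FGF19 and 134 kb from FGF4, stood at 8977 ± 264 in E8 and 7600.3 ± 456 at 48 h (n = 2 each; log2 difference -0.24, limma adjusted p = 0.28). NPM3, 3.04 kb from FGF8, stood at 2065 in E8 and 1838 at 48 h (log2 difference -0.15, limma adjusted p = 0.61). NUDT6, whose exons overlap those of FGF2 on the opposite strand over 804 bases, 11.9% of the exon length of FGF2, stood at 40.0 ± 5.16 in E8 and 67.3 ± 4.05 at 48 h (0.74, limma adjusted p = 0.10). It is unknown from the sources used here whether counting used strand, so reads of FGF2 and NUDT6 in that overlap cannot be told apart. The exons of FGFR1 overlap those of LETM2 on the opposite strand over 138 bases and those of the antisense gene AC087623.1 over 156 bases, with the same limit.

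At 24 h 3 neighbours fell (ANO1, PLEKHA2 and ATE1, which is named after its value was seen) and 1 rose (RAB24). Beside them, 7.56% of all tested genes were called lower and 8.66% higher. At 12 h 2 of the 28 fell (ANO1 and PLEKHA2) and 0 rose, beside 4.89% lower and 2.56% higher over all tested genes. More neighbours were called at 48 h and 24 h without E8 replicate 2, and fewer at 24 h without E8 replicate 1. No share of all tested genes is given for those fits, so nothing is read from these changes. From 24 h to 48 h 0 of 28 were called by limma, 0 by edgeR and 0 by DESeq2, with 0 at an unadjusted p under 0.05. From 12 h to 24 h 0 were called by limma, 0 by edgeR and 0 by DESeq2. At an unadjusted p under 0.05 there were 7, a threshold for which no share of all tested genes is given. ANO1 and PLEKHA2 were lower at 12 h, 24 h and 48 h in every alternative that tested them.

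**Figure D4:**
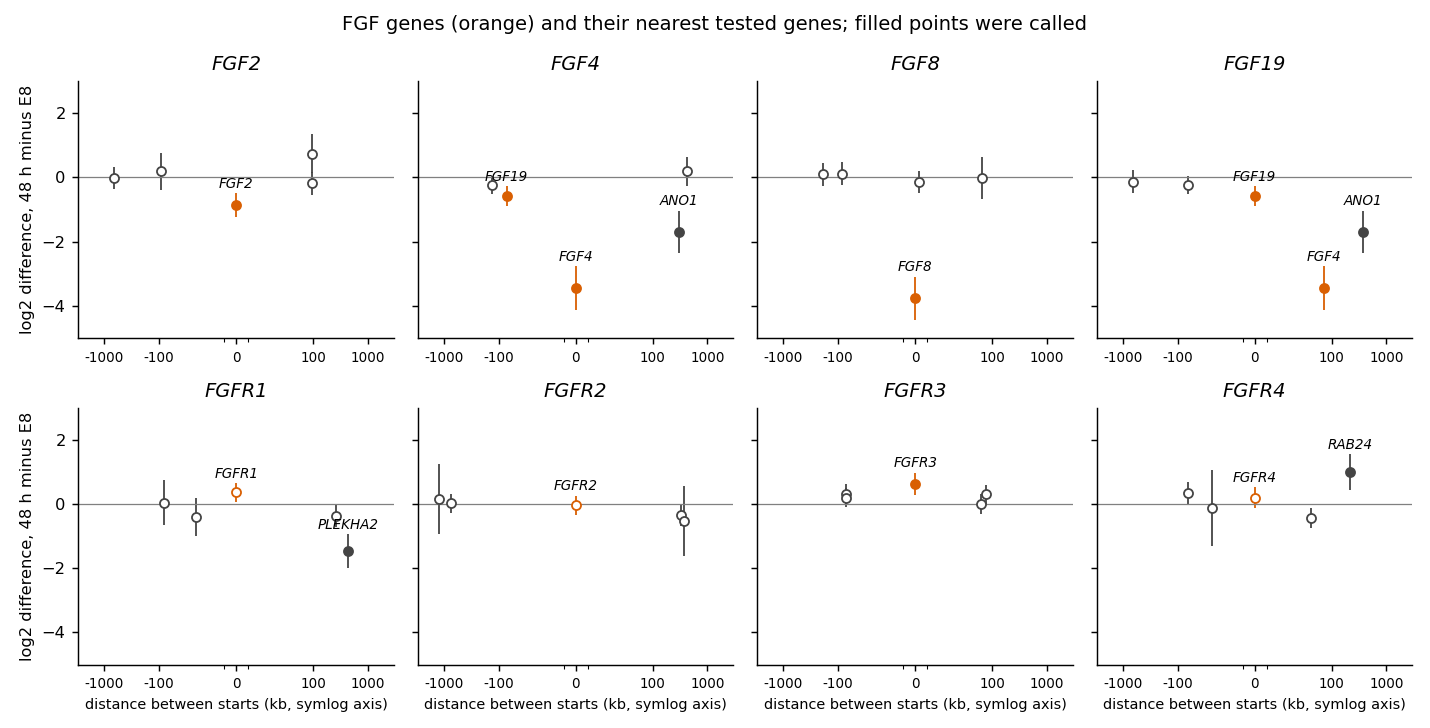
Log2 difference between 48 h and E8 (vertical axis, limma, 95% intervals) against the distance of the gene start from the start of the member (horizontal axis, kb, linear within 50 kb and logarithmic beyond). Members are orange, filled points were called, and ANO1, PLEKHA2 and RAB24 are the called neighbours.

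The wider pathway was covered by 69 listed genes, of which 60 were in the table and 54 were tested. At 48 h 5 fell, 3 rose and 46 did not pass, with a median log2 difference of -0.06 against 0.02 over all tested genes. Of all tested genes 6.45% were lower and 5.08% higher at 48 h, against 7.56% and 8.66% at 24 h, then 4.89% and 2.56% at 12 h, so the counts of the list are near the background. The 8 calls at 48 h became 15 without E8 replicate 2, and 3 and 4 with the first or the second 48 h library left out. At 24 h 5 fell (SPRY1, SPRY3, ETV1, FGF12 and FGF13) and 5 rose (HRAS, MAP2K2, SHB, NCAM1 and DUSP6). These 10 calls were 5 and 17 without E8 replicate 1 and 2, and 3 and 6 without 24 h replicate 1 and 2. At 12 h 3 fell (SPRY1, ETV1 and IL17RD) and 0 rose, 3 calls that were 7 and 10 without E8 replicate 1 and 2. From 24 h to 48 h 4 fell (DUSP5, SPRY2, SPRY4 and FGFBP3) and 1 rose (SPRY3), 5 calls that were 0 to 2 with 1 of the 4 libraries left out. Over all tested genes 0.856% were called lower and 0.349% higher from 24 h to 48 h, smaller shares than in the list. No share of all tested genes is given for the fits with a library left out, so those counts have no background beside them. Genes of the list called at these other times alone are named after their values were seen. From 12 h to 24 h 0 were called by limma and 0 by edgeR, while DESeq2 called 4, and 7 were at an unadjusted p under 0.05. For the unadjusted threshold no share of all tested genes is given at any time.

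Of 4 other secreted FGF ligands tested, 0 were called at 48 h by limma, edgeR or DESeq2, and 1, FGF18, was at an unadjusted p under 0.05. A further 4, FGF10, FGF17, FGF20 and FGF23, were listed with means of 6.56 to 8.94, under the filter, and were not tested. FGF1, FGF3, FGF5, FGF6, FGF7 and FGF21 were looked for by symbol and had no row in the deposited table. The intracellular FGF homologous factors, relatives of the ligands that are not secreted and regulate sodium channels, had 2 of 3 tested members lower. FGF12 fell from 305 ± 26.9 to 192 ± 21.3 (log2 difference -0.66, limma adjusted p = 0.027) and FGF13 from 1130.0 ± 107 to 779 ± 60.6 (-0.53, limma adjusted p = 0.029). Both calls were lost without E8 replicate 1 (-0.57 and -0.44) and without either 48 h library.

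Among 7 tested cofactors at the cell surface, 1 rose and 6 did not pass. NCAM1, a cell adhesion molecule that can bind FGF receptors, read 196 and 211 in E8, 318 at 12 h, 313 and 379 at 24 h, then 536 and 431 at 48 h. Each treated library lay above both E8 libraries and the 48 h libraries were highest. The log2 difference at 48 h was 1.24 (limma adjusted p = 0.00012), and it was called in every alternative run. Among 13 receptor adaptors 1 rose and 12 did not pass: FRS3, a paralog of FRS2, rose from 81.5 ± 21.4 to 138 ± 22.9 (0.77, limma adjusted p = 0.048), a call lost in 8 of 17 alternatives, among them edgeR and DESeq2.

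The RAS-ERK cascade had 0 of 13 tested genes called at 48 h by limma, edgeR or DESeq2 and 0 at an unadjusted p under 0.05, with a median log2 difference of -0.03. At 24 h 2 of the 13 rose. They were HRAS, a RAS GTPase (525 to 892, log2 difference 0.78, limma adjusted p = 0.0065), and MAP2K2, the gene of MEK2 (2629 to 3716, 0.51, limma adjusted p = 0.028). The HRAS call was lost without 24 h replicate 1 (0.64), and the MAP2K2 call without E8 replicate 1 (0.32) and without 24 h replicate 1 (0.40) or 2 (0.61).

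The feedback genes, targets and inhibitors of FGF signalling, leaned lower at 48 h but did not all move together. Of 14 tested, 3 fell, 1 rose and 10 did not pass, beside 6.45% lower and 5.08% higher over all tested genes. The median log2 difference was -0.37, against 0.02 over all tested genes. In limma 9 were at an unadjusted p under 0.05, of which DUSP6 alone was higher. No share of all tested genes is given for that threshold, so this count has no background beside it. With adjustment, edgeR called 5 and DESeq2 6. SPRY1, a Sprouty inhibitor of the pathway, read 1517 and 1398 in E8, 769 at 12 h, 914 and 882 at 24 h, then 659.8 and 698 at 48 h. All treated libraries lay below E8, with a log2 difference at 48 h of -1.10 (limma adjusted p = 4.6e-05) that was called in every alternative. ETV1, an ETS transcription factor, read 1998 and 1609.6 in E8, 985 at 12 h, 1025 and 1026 at 24 h, then 1003 and 1045 at 48 h. It was low at each treated time (-0.81 at 48 h, limma adjusted p = 0.0014) and called in every alternative at 24 h and 48 h.

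The dual-specificity phosphatases, which remove phosphate from ERK, differed from each other. DUSP5 read 1484 and 1496 in E8, 992 at 12 h, 1942 and 1488 at 24 h, then 862 and 908 at 48 h. It was low at 12 h and 48 h and overlapped E8 at 24 h, with a log2 difference at 48 h of -0.75 (limma adjusted p = 0.0031, not called without 48 h replicate 1). DUSP6 read 3477 and 3637 in E8, 3706 at 12 h, 6690 and 5501 at 24 h, then 5052 and 4758 at 48 h. It was high at 24 h and 48 h, with a log2 difference at 48 h of 0.46 (limma adjusted p = 0.039). That call was lost without either 48 h library, in a fit of those groups alone and with a replicate block. At 24 h the log2 difference was 0.77 (limma adjusted p = 0.0011), not called without 24 h replicate 1 (0.63).

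**Figure D5:**
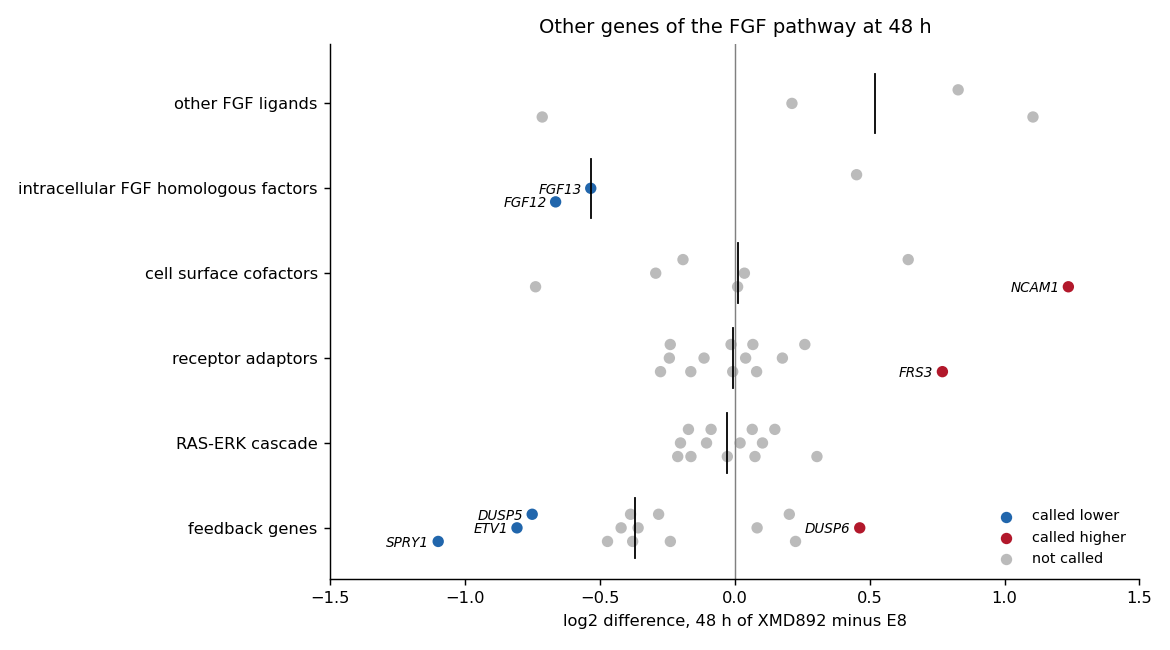
Log2 difference between 48 h and E8 (horizontal axis, linear, limma) for the 54 tested pathway genes that are not members, by list. Each point is a gene, coloured where called, and the vertical black bars are list medians. Called genes were 5 lower and 3 higher, and the RAS-ERK cascade had 0.

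The genes whose course was most like that of each member were found by Pearson r of log2(value + 1) over the 7 libraries, among 751 genes with a mean of 100 or more and a 2-fold range of group means. With 7 libraries that share the step between E8 and treatment, such r values are descriptions. For FGF4 they were GDF3, a TGFβ-family ligand gene (r = 0.998; 1009 in E8 and 146 at 48 h), KAT7, a histone acetyltransferase gene (0.993; 8086 and 2533), and KDR, the gene of a VEGF receptor (0.993; 2635 and 1109). For FGF8 they were ABHD12B (0.996; 269.7 and 52.5), PLEKHA6 (0.993; 417 and 157) and PLBD1 (0.991; 1385 and 242). These genes shared the low level at each treated time.

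For the other members the likest genes were CHML for FGF2 (r = 0.986; 2125 in E8, 1210.2 at 24 h and 1012 at 48 h) and IGSF21 for FGF19 (0.952), second to AC073111.4 (0.973). IGSF21 had the dip at 12 h and 48 h, with group means of 779 in E8, 286 at 12 h, 534 at 24 h and 336 at 48 h. CHST8 was the likest for FGFR4 (0.976; 535 in E8, 372 at 12 h, 765 at 24 h and 627 at 48 h). TRPM3 and COL2A1 were the likest for FGFR2 (0.979 and 0.974), both low at 12 h and 24 h. METTL12 was the likest for FGFR3 (0.978) and FP565260.6 for FGFR1 (0.979).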

How the data were processed

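RNA from 7 libraries of H1 cells was measured. Per the submitters' processing notes the tools were Trimmomatic 0.36, STAR, featureCounts 1.5.3 and DESeq2 1.26.0 with hg38; their roles, the annotation, strand setting and filters are not given in the sources used here. Each deposited value is a signal, the reads of a gene that the authors had divided by 1 factor per library: whole reads within a tolerance of 0.1 were recovered for 100% of values. A further 2 columns that match no sample were not used.

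Genes with a mean of 10 or more were fitted by limma 3.58.1 (R 4.3.3) on log2(value + 1), with 1 mean per group, a trended prior variance and all 7 libraries (3 residual and 18.4 prior degrees of freedom). P-values were adjusted by Benjamini-Hochberg over all 16351 tested genes, and the script was tested on simulated data. The members and lists were chosen with earlier results of these data known. Named genes were the members, up to 4 called genes per list and the called neighbours at 48 h, NUDT6, CCND1 and the likest genes by r. Coordinates, lengths and GC content came from GENCODE 29 on GRCh38, which matched 97.7% of symbols. The alternatives comprised other pseudocounts (0.5 and 5), other filters (none, or a mean of 50 or more), 3 rescalings, edgeR 4.0.16 and DESeq2 1.42.0 on recovered reads, robust moderation, only the groups compared, a replicate block, removal of the GC trend and leaving out each replicate. Poisson intervals cover counting error only.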

Additional observations from a re-analysis of the deposited data

How the results depend on the processing

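No result reversed. Leaving out 1 library in turn gave 2 to 7 called members at 48 h (5 with all libraries), 3 to 6 at 24 h (4) and 5 at 12 h, without either E8 library (3). For pathway genes it gave 3 to 15 at 48 h (8), 3 to 17 at 24 h (10), 7 to 10 at 12 h (3), 0 to 2 from 24 h to 48 h (5) and 0 to 2 from 12 h to 24 h (0). For neighbours it gave 2 to 10 at 48 h (3) and 2 to 10 at 24 h (4). Against E8, the highest counts of pathway genes came without E8 replicate 2. The share of all tested genes called in each alternative is not given, so the counts in this section have no background beside them. With the GC trend removed, 13 pathway genes and 6 neighbours were called at 48 h, 9 pathway genes at 12 h and 2 from 12 h to 24 h. A fit of only the groups compared called 1 pathway gene at 12 h, 1 member and 10 pathway genes from 24 h to 48 h, and 3 members, 7 pathway genes and 6 neighbours from 12 h to 24 h. DESeq2 called 1 member and 4 pathway genes from 12 h to 24 h. A mean of 50 or more left 1 neighbour, PLEKHA2, called at 12 h, because ANO1 lay under that filter and was not tested there. The cause of the other shifts was not tested. With the replicate block, 5 members, 7 pathway genes and 3 neighbours were called at 48 h, with DUSP6 no longer called. Deviations of same-numbered libraries correlated at -0.04, -0.05 and -0.07. The E8 and 48 h pairs also differed with GC content (Spearman correlations 0.77 and -0.33), so these values cannot exclude a shared day or batch. With 15 to 32 reads per treated library, differences between treated times in FGF4 and FGF8 are imprecise.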
